A study of Homo sapiens with 3 samples.

Results

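The BMP and ID gene axis was followed as 10 genes, ID1, ID2, ID3, ID4, BMP2, BMP4, SMAD6, SMAD7, BAMBI and BMPR2, of the 56632 gene IDs in each deposited table. They were named by symbol and matched to Ensembl gene IDs, and all 10 were found. They were chosen on their expected counts and TPM in these same libraries, known from earlier results, so their values are given as a description, with no test. The cells were MCF10Ca1h, a breast cancer line of the human MCF10 series, grown in DMEM/F12 with 5% horse serum. GSK484 cells received GSK484, an inhibitor of the arginine-citrullinating enzyme PADI4, for 72 h. CON cells received a control compound for 72 h, named GSK107 in the treatment text of the labels and GSK106 in the name of the deposited table. NT cells were untreated, with no time given. The labels give no dose and name no genetic change or second cell line, and all 3 groups share the line and the medium. Each group had 1 library, so differences below are between single libraries without any check against replicate spread, and every interval covers counting error only.

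Bone morphogenetic proteins (BMPs) are secreted ligands that bring together type I and type II receptor kinases at the cell surface. The receptors phosphorylate SMAD transcription factors, which enter the nucleus and switch on target genes, among them the ID genes and the inhibitory SMADs that feed back on the receptors. ID proteins carry a helix-loop-helix domain but no DNA-binding basic region, so they tie up E proteins in inactive pairs. In mammary epithelium ID1 is known for holding back differentiation. In bulk RNA a smaller number of cells of one kind and less RNA per cell cannot be told apart.

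The promoters of ID1, ID2 and ID3 are shown because these are the pathway's best-known targets and were the members lower in GSK484 than in CON together with SMAD6. The windows are from RefSeq on GRCh38.p14, run from 250 bases before to 50 bases after the annotated start, and are written 5′ to 3′ on the gene's strand. ID1 is at chr20:31605039-31605338 (plus strand), ID2 at chr2:8681806-8682105 (plus strand) and ID3 at chr1:23559452-23559751 (minus strand). The deposited tables were made on hg19, so these coordinates belong to another build. Capitals mark matches on either strand to the CCAAT box, the TATA box (spelt TATAAA), the E-box bound by E proteins (spelt CANNTG) and a GC-rich element of the kind bound by SMAD proteins (spelt GGCGCC).
ID1: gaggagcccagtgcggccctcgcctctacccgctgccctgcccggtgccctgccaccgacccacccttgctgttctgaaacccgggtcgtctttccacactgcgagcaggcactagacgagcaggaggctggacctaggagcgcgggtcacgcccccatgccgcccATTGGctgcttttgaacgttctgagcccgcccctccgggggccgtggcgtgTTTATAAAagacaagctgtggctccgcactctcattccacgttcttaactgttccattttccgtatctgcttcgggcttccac
ID2: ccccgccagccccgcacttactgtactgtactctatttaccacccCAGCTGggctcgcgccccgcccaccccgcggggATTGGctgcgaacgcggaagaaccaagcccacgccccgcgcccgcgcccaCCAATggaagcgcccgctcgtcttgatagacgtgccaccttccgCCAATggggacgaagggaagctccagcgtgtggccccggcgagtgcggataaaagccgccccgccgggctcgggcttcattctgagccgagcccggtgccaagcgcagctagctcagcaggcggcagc
ID3: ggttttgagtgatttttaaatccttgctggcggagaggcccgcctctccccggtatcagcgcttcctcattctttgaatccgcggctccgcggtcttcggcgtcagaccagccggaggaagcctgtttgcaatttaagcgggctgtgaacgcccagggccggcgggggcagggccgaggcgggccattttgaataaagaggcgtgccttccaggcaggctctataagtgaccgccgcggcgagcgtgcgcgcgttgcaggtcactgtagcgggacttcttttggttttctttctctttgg
The ID1 window held 1 CCAAT box and 2 overlapping TATA box matches, 1 on each strand, within 33 bases before the start. In the ID2 window lay 3 CCAAT boxes and 1 E-box, and in the ID3 window none of these 3 motifs. The GC-rich element was in none of these 3 windows, which says only that its letters are not in them. The short SMAD-binding element (spelt GTCT, not in capitals above) had 3 matches in the ID1 window, 2 in that of ID2 and 2 in that of ID3. The GC box (spelt GGGCGG, not in capitals) had 2 matches each in the ID1 and ID2 windows and 0 in that of ID3. Of 35116 promoter windows of the same length, 19.2% held the GC-rich element, 84.0% the short SMAD-binding element, 34.6% a CCAAT box, 11.5% a TATA box and 68.7% an E-box, and 15786 windows held a GC box. Of the 10 genes, 9 had a promoter window in the table.

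Total expected counts were 77220120 in GSK484, 92980847 in CON and 70555229 in NT. CPM values below, library-scaled expected counts, carry TMM factors, and TPM are the deposited values, which account for transcript length. All 10 genes had whole expected counts in every library, so the tables show no sign of reads divided with another gene. The same held for 8121 of the 13312 genes with at least 1 CPM in some library, called measured below. Of the 10 members, 9 reached 1 CPM. Epithelial markers were plentiful, with 8 of 8 measured and summed levels of 9332 CPM in GSK484, 8863 CPM in CON and 8777 CPM in NT. The leukocyte markers PTPRC and CD3E were at 0 in every library. Fibroblast markers summed to 6.06 to 7.81 CPM, nearly all of it COL1A1, with COL3A1 and DCN at 0.

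**Figure D1:**
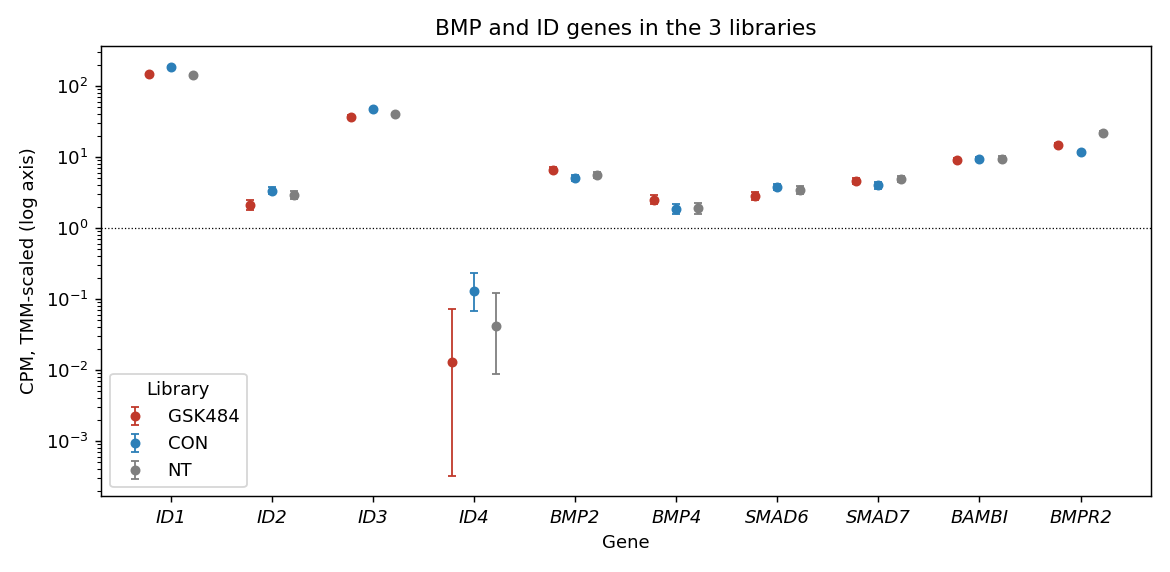
Levels of the 10 genes as TMM-scaled CPM on a log axis, with 1 point per library (GSK484 red, CON blue, NT grey) and 95% exact Poisson counting intervals as bars; the dotted line is 1 CPM. ID1 lies at 145 to 187 CPM, and ID4 lies below the line in every library, at 0.013 to 0.13 CPM; CPM does not account for gene length, so heights compare libraries and not genes.

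Per transcript length, ID1 was by far the most abundant member. It stood at 206.06 TPM in GSK484, 241.95 TPM in CON and 206.1 TPM in NT, above 94.8% to 95.8% of the measured genes. ID3 followed at 45.57 TPM in GSK484, 54.18 in CON and 50.81 in NT. Then came BAMBI, a decoy receptor that lacks a kinase domain, with 6.25 TPM in GSK484, 5.97 TPM in CON and 6.64 TPM in NT. ID2 held the fourth place in each library, with 3.56 TPM in GSK484, 3.81 in CON and 3.8 in NT. These 4 ranks were the same in all 3 libraries and their counting intervals did not overlap. ID1 transcripts exceeded ID3 transcripts 4.52-fold in GSK484, 4.47-fold in CON and 4.06-fold in NT.

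The lower ranks were close together. SMAD7, BMP2, SMAD6 and BMP4 followed each other in GSK484 at 2.68, 2.29, 2.11 and 1.97 TPM, with each neighbouring pair's counting intervals overlapping. The order in CON was SMAD6, SMAD7, BMP2, BMP4 and BMPR2, at 2.66, 2.14, 1.63, 1.31 and 1.16 TPM, and there BMP4 overlapped both of its neighbours. In NT it was SMAD6 at 2.91, SMAD7 and BMPR2 both at 2.38, BMP2 at 1.97 and BMP4 at 1.45 TPM, and SMAD7 overlapped both SMAD6 and BMPR2. BMPR2 was thus the ninth of the 10 in GSK484 and CON but stood level with SMAD7 in NT. ID4 came last everywhere, with 1 count in GSK484, 12 in CON and 3 in NT. The ratio of ID4 counts between GSK484 and CON had a log2 fold of -2.85 with a wide interval, -8.77 to -0.60, and ID4 stayed below the 1 CPM asked of a called gene.

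GSK484 against CON sets the PADI4 inhibitor against its control compound after the same time. In place of a test, a gene was called when 3 conditions held: a log2 fold of at least 0.32 in size (25% higher, or lower by the same factor), a 95% counting interval on one side of 0, and 1 CPM or more in either library. Of the 10 members, 3 were higher, BMP2, BMP4 and BMPR2, against 9.0% of 13199 compared genes, and 4 were lower, ID1, ID2, ID3 and SMAD6, against 4.45% of compared genes. SMAD7 and BAMBI met neither call, and ID4 was below the minimum level. None of the 9 measured members reached 2-fold, where 0.197% of genes were higher and 0.273% lower. The median log2 fold was -0.04 over the 9 measured members and -0.00 over all measured genes. Because the members were chosen with these values in view, nothing is read from those counts.

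Both ligand genes were higher in GSK484 than in CON. BMP2, a ligand known for bone formation and epithelial patterning, was at 6.68 CPM in GSK484 against 5.12 CPM in CON, with 5.68 CPM in NT. That is 1.30 times the CON level (log2 fold 0.38, interval 0.20 to 0.57). BMP4, its close relative, was at 2.53 CPM in GSK484, 1.87 CPM in CON and 1.91 CPM in NT. GSK484 was the highest library for both ligands, while CON and NT differed within counting error for both. BMP4 was 1.35-fold higher than in CON (log2 fold 0.43, interval 0.13 to 0.74). Removing a trend of fold on GC content and transcript length left BMP2 at 0.41 and BMP4 at 0.53.

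The receptor gene BMPR2 encodes the type II receptor that is selective for BMPs. It was at 14.9 CPM in GSK484, 11.6 CPM in CON and 22.2 CPM in NT, so NT was highest, CON lowest and no counting intervals overlapped. The log2 fold of GSK484 against CON was 0.36 (interval 0.23 to 0.48), or 1.28-fold higher. BMPR2 is rich in A and T, with 37.6% GC in its longest transcript, and lay in the lowest sixth of measured genes by GC content, where the median log2 fold was 0.18. With the GC and length trend removed its log2 fold was 0.07 (interval -0.05 to 0.19), and the call was lost. BAMBI had 9.08 CPM in GSK484, 9.36 CPM in CON and 9.55 CPM in NT, and all 3 comparisons were within counting error.

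The ID targets lay on the other side. ID1 was at 147 CPM in GSK484, 187 CPM in CON and 145 CPM in NT. GSK484 and NT were close together and CON stood above both. ID1 was 1.27-fold lower in GSK484 than in CON (log2 fold -0.34, interval -0.37 to -0.31). For ID3 the levels were 37.3 CPM in GSK484, 47.3 CPM in CON and 40.4 CPM in NT, with CON again highest. Its log2 fold against CON was -0.34 (interval -0.41 to -0.28), also 1.27-fold lower. Both folds lie just past the minimum, and neither call held with total-count scaling or with the deposited TPM. All measured genes had a median log2 fold of 0.10 by TPM, and relative to that median ID1 was at -0.33 and ID3 at -0.35, both past the minimum; this centring was chosen after seeing the data. Nor did they hold once the trend on GC content and length was taken out, which left -0.21 for ID1 and -0.22 for ID3.

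ID2 showed the largest fold of the measured members against CON. It was at 2.11 CPM in GSK484, 3.38 CPM in CON and 2.95 CPM in NT, from 164, 308 and 210 counts. GSK484 was lowest, and its counting interval overlapped neither of the others, while those of CON and NT overlapped. The fold was 1.60-fold lower than in CON (log2 fold -0.68, interval -0.96 to -0.40). The deposited TPM hardly differed, at 3.56 in GSK484 and 3.81 in CON (log2 fold -0.10 with 0.1 added to each value). By TPM relative to the median gene ID2 was at -0.19, and the call was lost under both. Between the 2 units stands the length that the authors' quantification gave to ID2 in each library, an effective length of 691.5 bases in GSK484, 958.4 in CON and 911.2 in NT. The tables list 4 ID2 transcripts, which in GENCODE release 29 are 474, 623, 1362 and 2041 bases long, and the estimate weights them by library. A change of length at least as large between GSK484 and CON was seen in 1.56% of measured genes, whose median absolute log2 ratio was 0.03, against 0.47 for ID2. How far fewer ID2 reads stand for fewer transcripts or for shorter ones was not tested.

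**Figure D2:**
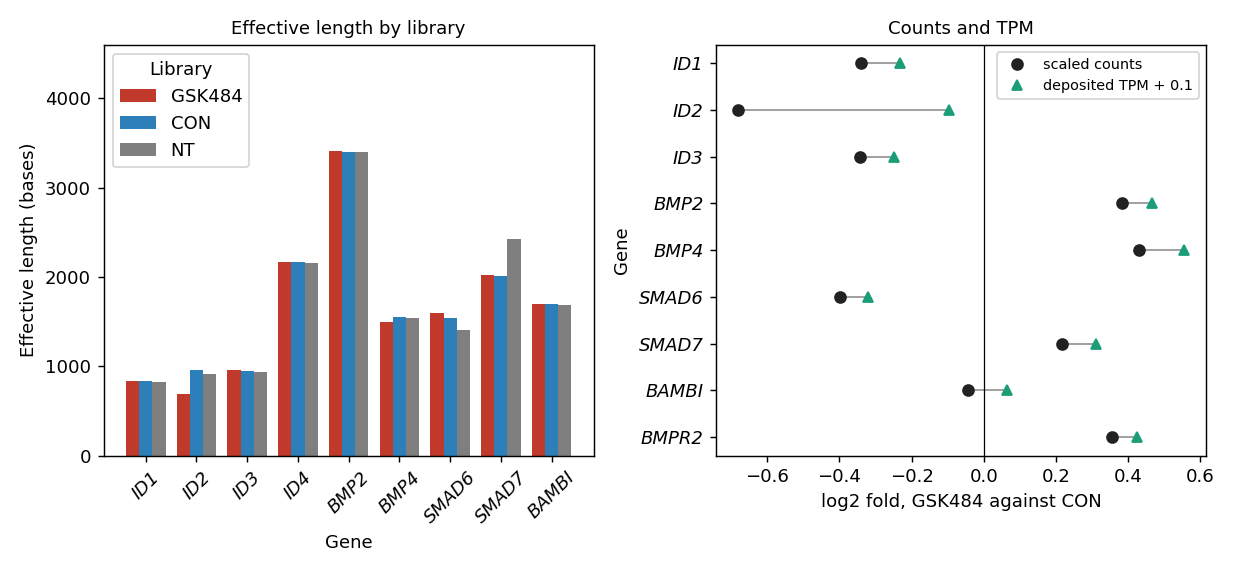
Left, effective length in bases of 9 of the genes in each library (BMPR2, at 10899 to 10934 bases, is left out for scale); right, log2 fold of GSK484 against CON from scaled counts (black circles) and from deposited TPM with 0.1 added (green triangles) for the 9 measured genes. ID2 has the shortest length in GSK484, and its log2 fold is -0.68 by counts and -0.10 by TPM.

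The inhibitory SMADs did not move together. SMAD6, which mainly restrains BMP receptors, was at 2.88 CPM in GSK484, 3.79 CPM in CON and 3.49 CPM in NT. GSK484 was the lowest library, 1.32-fold below CON (log2 fold -0.40, interval -0.65 to -0.15). By the deposited TPM the call was lost by a narrow margin, at -0.321 against a minimum of 0.322 in size. It held with TPM relative to the median gene, at -0.42. SMAD7, which restrains both TGF-beta and BMP receptors, was at 4.63 CPM in GSK484, 3.99 CPM in CON and 4.91 CPM in NT. Here CON was lowest, and the log2 fold of GSK484 against CON was 0.22 (interval 0.00 to 0.43), short of the minimum for a call. Per length, SMAD6 stood below SMAD7 in GSK484, at a TPM ratio of 0.787, but above it in CON at 1.24 and in NT at 1.22. SMAD7 was assigned a longer effective length in NT, 2425 bases, than in GSK484 with 2027 or in CON with 2015.

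**Figure D3:**
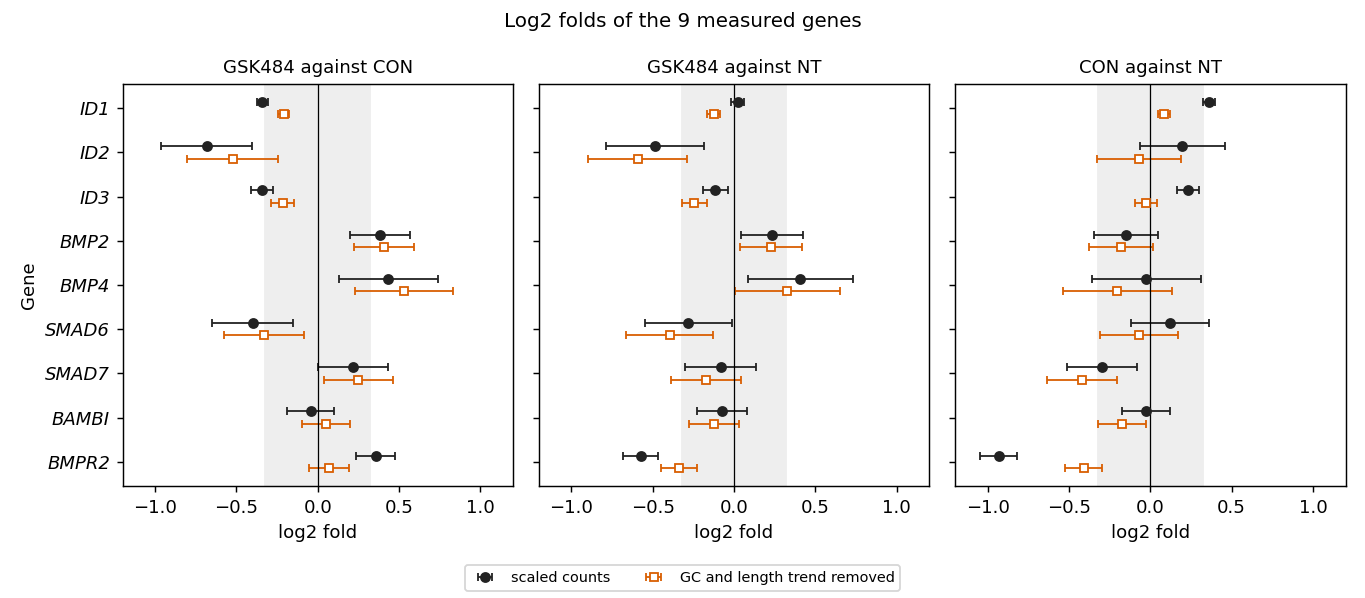
Log2 fold of the 9 measured genes in each comparison, from scaled counts (black circles) and with the GC and length trend removed (open orange squares), with 95% counting intervals; the grey band marks log2 folds under 0.32 in size. BMP2 and BMP4 lie right of the band against CON under both, while ID1 and ID3 move into the band and BMPR2 moves from 0.36 to 0.07 once the trend is removed.

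Against NT, the inhibitor is compared with cells that received nothing, and this comparison shares the GSK484 library with the comparison above. One member was higher, BMP4, against 5.09% of 13209 compared genes, and 2 were lower, ID2 and BMPR2, against 7.38%. None of the 9 measured members reached 2-fold, as 0.273% of genes did as higher and 0.28% as lower. BMP4 was 1.32-fold higher than in NT (log2 fold 0.41, interval 0.08 to 0.73), and BMP2 stayed short of the minimum at 0.23 (interval 0.04 to 0.42). ID2 was 1.40-fold lower than in NT (log2 fold -0.48, interval -0.79 to -0.18), and by the deposited TPM its log2 fold was -0.09. ID1 did not differ beyond counting error (log2 fold 0.02, interval -0.02 to 0.06), and ID3 was at -0.11 (interval -0.19 to -0.04). SMAD6 was at -0.28 (interval -0.55 to -0.01), and with the GC and length trend removed it passed the minimum at -0.40. BMPR2 was 1.49-fold lower than in NT (log2 fold -0.57, interval -0.69 to -0.46), a value of -0.34 without the trend.

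CON against NT compares the control compound with untreated cells, and shares a library with each comparison above. Of the 10 members, 1 was higher, ID1, against 6.91% of 13221 compared genes, and 1 was lower, BMPR2, against 14.5%. None of the 9 measured members reached 2-fold, which 0.333% of genes did as higher and 1.35% as lower. The ID1 difference was 1.29-fold (log2 fold 0.36, interval 0.33 to 0.40), and its call was lost with total-count scaling (0.32, just short) and with the deposited TPM (0.23, or 0.31 relative to the median gene). That of ID3 was 0.23 on the log2 scale (interval 0.16 to 0.30). BMPR2 was 1.91-fold lower in CON than in NT (log2 fold -0.93, interval -1.04 to -0.82), the widest gap of any measured member. SMAD7 was at -0.30 (interval -0.51 to -0.08).

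Folds varied with GC content in all 3 comparisons. In GSK484 against NT the lowest sixth by GC had a median of -0.17 and the highest 0.13. For GSK484 against CON these medians were 0.18 and -0.02. Genes in the lowest sixth by GC had a median log2 fold of -0.35 in CON against NT, and those in the highest sixth 0.15. ID1, ID3, BMP4, SMAD6 and SMAD7 fell in the band next to the highest, whose median was 0.11, and ID2, BMP2 and BAMBI in the band below it, at 0.07. With the trend on GC content and length removed, CON against NT was 0.08 for ID1 and -0.03 for ID3, while BMPR2 kept a log2 fold of -0.41 (interval -0.52 to -0.30) and SMAD7 came to -0.42. The same removal gave ID1 a log2 fold of -0.12 and ID3 of -0.24 in GSK484 against NT.

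**Figure D4:**
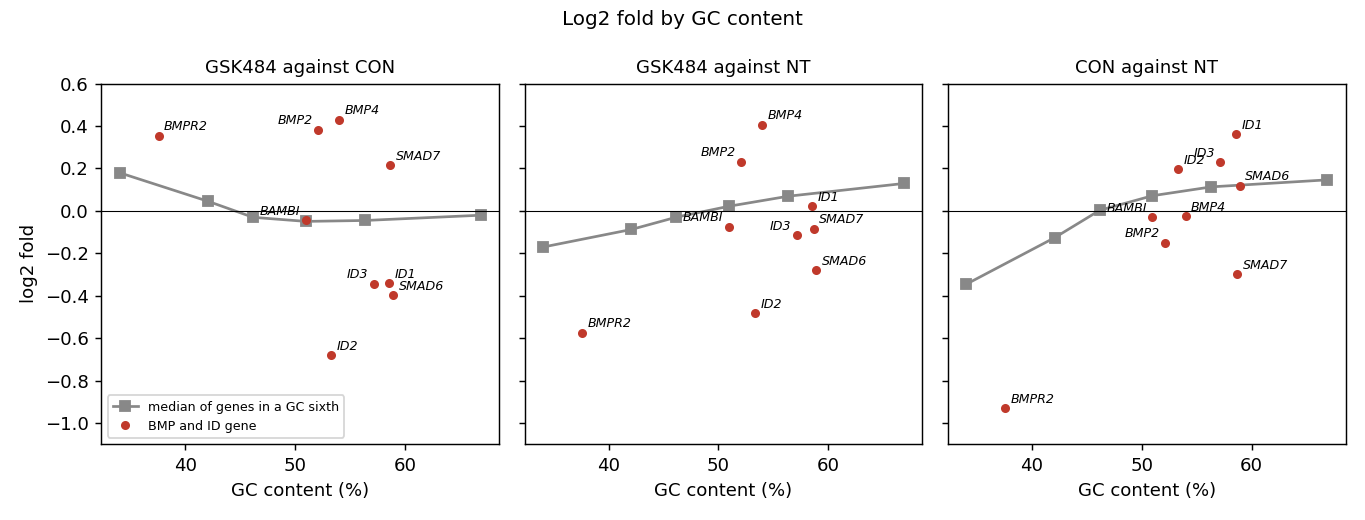
Log2 fold against GC content (%) of the longest transcript for the 9 measured genes (red) and the median of all measured genes in each sixth of GC content (grey squares), 1 panel per comparison. BMPR2, at 37.6% GC, sits in the low-GC sixth whose median is 0.18, -0.17 and -0.35 in the 3 panels from left to right.

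**Figure D5:**
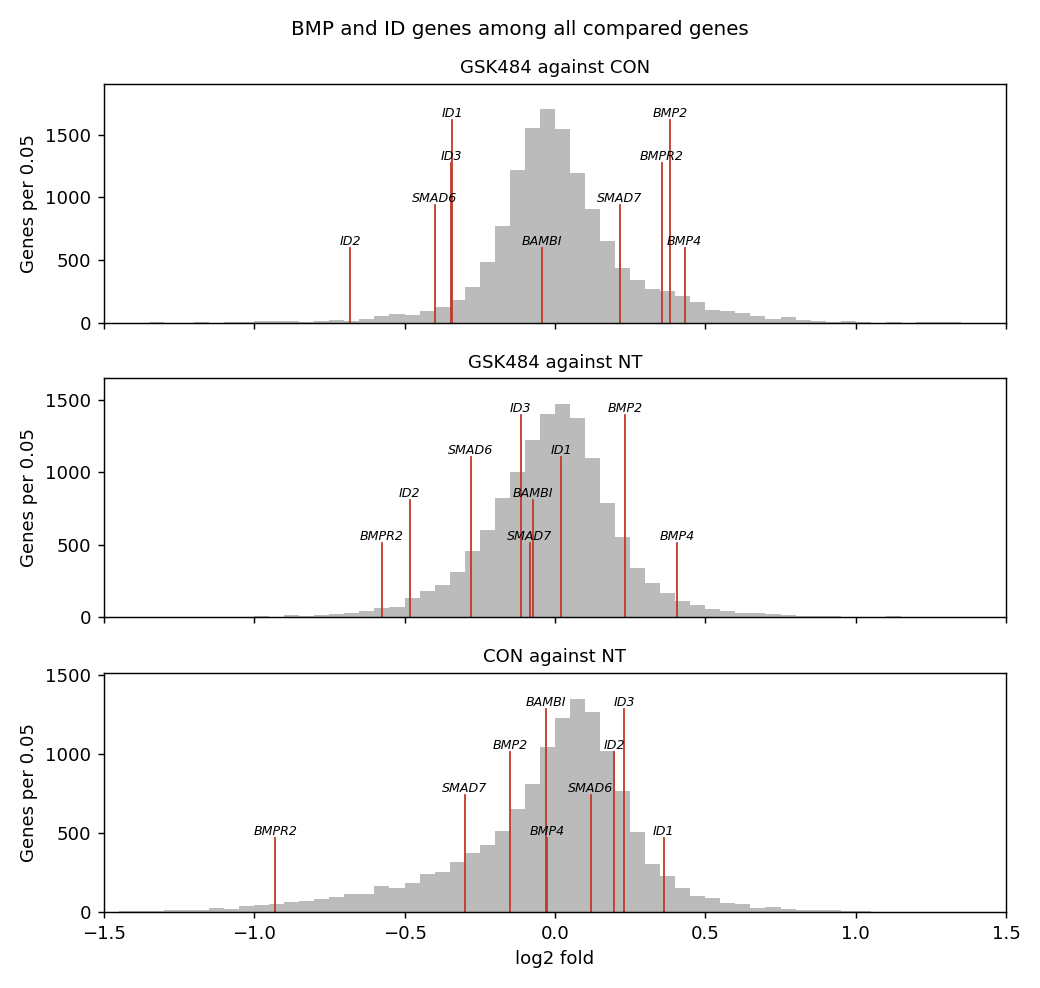
Numbers of compared genes per 0.05 of log2 fold (grey bars) in each comparison, with the 9 measured genes marked by red lines whose height has no meaning. BMPR2 lies in the long lower tail of CON against NT, at -0.93, and BMP4 lies at 0.43 and 0.41 in the upper part of the 2 comparisons of GSK484.

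The remaining genes of the pathway, 84 list entries in 7 lists of which 83 matched a gene ID, were set beside the members in the same comparisons. Of their 54 measured genes, 3 were higher in GSK484 than in CON, 0 lower and 51 met neither call. Over all compared genes 9.0% were higher and 4.45% lower, so these counts were near the overall shares. None of the 3 calls held with the trend on GC content and length removed. Among 9 measured receptors and co-receptors, BMPR1B, a type I receptor gene, was higher, at 4.19 CPM in GSK484 against 2.98 CPM in CON (log2 fold 0.49, interval 0.25 to 0.73). Without the trend BMPR1B was at 0.29. ACVR1, another type I receptor, had a log2 fold of -0.26 and BMPR1A one of 0.18, both short of the minimum. Their list's median log2 fold was 0.03, where that of all measured genes was -0.00. The other measured ligands, BMP6, BMP7 and BMP8B, were each within counting error. BMP7, a ligand of kidney and epithelial development, was at 5.05 CPM in GSK484 and 5.37 CPM in CON.

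Secreted antagonists, which keep ligands from their receptors, had 8 measured members with 0 called and a median log2 fold of 0.15. TWSG1, a BMP-binding modulator, was at 0.26, CRIM1, a membrane protein that binds BMPs, at 0.24 and FSTL1, a secreted follistatin-like protein, at 0.22, and TWSG1 came to -0.02 without the GC and length trend. Of 14 SMAD transducers and regulators, with a median of 0.12, SKIL, a corepressor of SMADs that TGF-beta induces, was higher at 0.40 (interval 0.28 to 0.52). Without the trend SKIL was at 0.03. SMURF2, a ubiquitin ligase for SMADs and receptors whose reads were divided, was at 0.25, and LEMD3, an inner nuclear membrane protein that binds SMADs, at 0.17. Of the transducers of the BMP branch, SMAD1 at -0.02 and SMAD9 at 0.16 were within counting error of 0. SMAD5, whose reads were divided, was at 0.17, short of the minimum, and at -0.10 without the trend.

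The other BMP-inducible genes with a measured level were MSX1, MSX2, RUNX2 and JUNB, with 0 called and a median log2 fold of -0.08. JUNB, at 122 CPM in GSK484 and 128 CPM in CON, had a log2 fold of -0.06 (interval -0.10 to -0.02). Partners of ID proteins and genes under E protein control had 10 measured members, 0 called and a median of 0.06. HES1, a transcriptional repressor gene, was at -0.25, TWIST1, a bHLH factor of mesenchymal cells, at -0.24 and ETS1, a transcription factor that ID proteins can bind, at 0.22. The E protein genes themselves were at 0.06 for TCF3, -0.04 for TCF4 and 0.19 for TCF12. The 6 TGF-beta inducible genes had a median of 0.01, with the matrix protein gene LTBP2 higher at 0.35 (divided reads; 0.29 without the trend), the matricellular gene CCN2 at -0.28 (divided reads) and the SMAD corepressor gene TGIF1 at -0.22.

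Against NT the same 54 genes had 0 higher and 5 lower in GSK484, and 2 higher and 9 lower in CON. The shares over all compared genes were 5.09% higher and 7.38% lower in GSK484 and 6.91% and 14.5% in CON, so the counts of lower genes were near them. The 5 lower in GSK484 were BMPR1A at -0.35, SMAD1 at -0.35, SMAD5 at -0.35, SKIL at -0.40 and TCF12 at -0.44. Without the trend they were at -0.21, -0.25, -0.13, -0.15 and -0.29 in that order, and all 5 calls were lost. In CON against NT, which uses the same NT library, these genes had log2 folds of -0.52, -0.33, -0.52, -0.80 and -0.62 in the same order. Without the trend on GC content and length the CON values were -0.26, -0.15, -0.03, -0.18 and -0.34. MSX2, a homeobox gene that BMPs induce, was higher in CON than in NT at 0.38 (interval 0.18 to 0.59). The call held without the trend, at 0.33 (interval 0.14 to 0.54). MSX2 was short of the minimum by the deposited TPM at 0.27, where all measured genes had a median of -0.08. TWIST1 was higher at 0.34, but at 0.11 without the trend and at -0.13 by the deposited TPM, with an effective length of 1250 bases in CON against 980.9 in NT. In GSK484 against NT, MSX2 was at 0.29 (interval 0.08 to 0.50), short of the minimum.

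CDH5, an endothelial cadherin gene, was highest in CON as ID1 was, with 0.937 CPM in GSK484, 1.57 CPM in CON and 0.968 CPM in NT. The 4 matched endothelial markers summed to 1.05 CPM in GSK484, 1.71 CPM in CON and 1.07 CPM in NT, and only CDH5 was measured. The defining endothelial markers VWF and KDR were at or near 0, with at most 0.026 CPM in any library. Genes most like ID1 were taken as those with the nearest pair of log2 folds (GSK484 against CON and against NT), over 8540 genes of at least 10 CPM in all 3 libraries. They were FITM2, SWI5, TLCD1, FXYD3 and the pseudogene MTCO2P12, whose reads were divided, at distances of 0.02 to 0.03. With 3 libraries such likeness is common, and 72 genes lay within 0.1 of ID1. FXYD3, an ion pump regulator gene of epithelia, had 503 CPM in GSK484, 626 CPM in CON and 499.9 CPM in NT.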

How the data were processed

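Per the labels' protocols, a stranded total RNA kit and paired-end reads of 125 bp were used. RSEM and hg19 come from the submitters' processing notes; the RSEM version, aligner, annotation release and strand setting were not given in the sources used here. The deposited expected counts are estimated reads per gene, not normalized. TPM, as RSEM defines them, account for effective length and sum to the same total in every library. Effective lengths were read beside the deposited TPM, and the deposited FPKM values were not used.

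Expected counts were scaled with TMM factors (1.01 in GSK484, 0.98 in CON, 1.01 in NT; edgeR 4.0.16, R 4.3.3). A prior count of 0.5, in proportion to library size, entered the log2 folds. Their 95% intervals are exact conditional binomial (Clopper-Pearson) intervals on rounded counts. These were tried only on simulated Poisson counts, the model they assume, so that trial says nothing about replicate spread. CPM and TPM intervals are exact Poisson. All these intervals cover counting error only, and PCR copies were not separable. For a count of 0 the upper end of the exact Poisson interval is 0.047 CPM in GSK484, 0.040 CPM in CON and 0.052 CPM in NT. A minimum fold stood in for a test, since 1 library per group allows none.

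Symbols, gene types and GC content were looked up by gene ID in GENCODE release 29, on another build, and a table of gene names. Counts are called whole within 0.005. A natural-spline trend on GC content and log2 effective length was fitted to 8648 protein-coding genes with a mean of 10 CPM or more. Members and lists were chosen with earlier results of these data known. Named genes were all 10 members, up to 3 genes per list with the largest absolute log2 fold of GSK484 against CON beyond counting error, the 5 genes most like ID1 and the marker genes; other genes named were chosen after their values were seen. GDF2 and PECAM1 were not matched and were not analysed here. BMPR2 overlaps a pseudogene with at most 4 counts, and the antisense genes of ID2 and ID4 had at most 1 and 7. Alternatives were total-count and DESeq2 1.42.0 scaling, no CPM minimum, a 2-fold minimum, a prior count of 2, TPM with 0.1 added and removal of the trend; TPM centred on the median gene was added after seeing the data. One marker of the leukocyte list is not reported here.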

Additional observations from a re-analysis of the deposited data

How the results depend on the processing

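The 4 members lower in GSK484 than in CON became 2 with total-count scaling, 2 with the trend on GC content and length taken out and 0 with deposited TPM. They became 3 with centred TPM, and 5 with no CPM minimum, which adds ID4. The 1 member higher in CON than in NT became 0 with total-count scaling, with the trend removed, with deposited TPM and with centred TPM. The 1 lower member became 2 with total-count scaling and 2 with the trend removed. At a 2-fold minimum every count of members in the 3 comparisons was 0. The causes of these shifts were not tested. The median log2 fold of the 9 measured members in GSK484 against CON was -0.04, and 0.05 with the trend removed or 0.07 with deposited TPM, where all measured genes had a median of 0.10. In CON against NT the median was -0.03, and with ID4 included 0.05. No fold that was called in its own comparison changed direction in any alternative. Some uncalled folds did. With the trend removed, ID3 in CON against NT went from 0.23 to -0.03, and ID1 in GSK484 against NT from 0.02 to -0.12. Of 210 log2 folds of single members under alternatives, 185 stayed within the main counting interval and 25 moved outside it. Of the 25, 10 moved with the trend removed. The 185 include 30 with no CPM minimum, which changes only the calls, so those 30 folds could not move. Depth limits ID4, with 1 to 12 counts, and no replicate spread could be measured. No paired analysis was possible because each group had 1 library and the labels give no replicate numbers.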
